A study of Mus musculus with 11 samples.

Results

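The dystrophin glycoprotein complex was followed through 9 of its genes in C2C12 cells. This mouse line grows as myoblasts, and on removal of serum the cells exit the cycle and fuse into myotubes. The genes are Dmd, Utrn, Dag1, Sgca, Sgcb, Sgcd, Sgce, Sntb1 and Dtna, chosen by symbol, and all 9 had a row among the 15113 genes of the count table. The libraries carried a random short hairpin RNA (shRandom, n = 6) or a hairpin against Drp1 (shDRP1, n = 5), the GTPase encoded by Dnm1l that divides mitochondria. Both groups were the same line at passages 2 to 5 and were labelled early-stage myotubes, and the labels name no clone, hairpin sequence, age of the cultures or further treatment. Whether each library is its own culture is not stated in the labels, so the p-values here cover only library-to-library spread, which may be technical. The series title asks how Drp1 bears on substrate oxidation and on calcium in muscle, and the genes of the complex were read here as part of the state of the muscle cell membrane.

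The dystrophin complex ties the actin cytoskeleton of the muscle fibre to the basement membrane outside it. Dystrophin, or its paralog utrophin, binds actin on the inside, dystroglycan crosses the membrane and binds laminin on the outside, and the sarcoglycans and sarcospan brace dystroglycan in the membrane. Syntrophins and dystrobrevins hang on the cytoplasmic side and carry signalling proteins such as neuronal nitric oxide synthase. Loss of dystrophin or of alpha-, beta- or delta-sarcoglycan causes muscular dystrophy in people and in mice. In adult fibres alpha-sarcoglycan is a striated muscle protein, while its paralog epsilon-sarcoglycan is made in many tissues and takes its place in the complex of smooth muscle.

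Total counts per library ran from 12277622 to 23082617. Dnm1l was at 67.1 to 86.2 CPM, counts scaled to the size of the library, in shRandom and at 14.5 to 21.0 CPM in shDRP1 libraries, a log2 fold change of -2.07 (SE 0.11, adjusted p = 2.7e-10, edgeR quasi-likelihood test). The label of early myotubes was set beside the RNA of marker genes only, and cell shape and fusion were not examined here. The marker lists were drawn up with earlier results of these data known, so their counts are no independent support for a cell state. All 10 listed myotube markers, among them Myog and Mymk, were lower in shDRP1. Their summed level was 12930 to 14690 CPM in shRandom and 122.6 to 178.3 CPM in shDRP1 libraries. Of 7 smooth muscle markers 6 had a row, 5 were higher and none lower, and their sum went from 2696 to 3236 CPM in shRandom to 8716 to 10450 CPM in shDRP1. Most of that sum was Acta2, with means of 2687 and 7975 CPM, and Smtn did not pass the test. Of 8 fibroblast markers 7 had a row, 5 were higher and 1 lower, and their sum went from 6656 to 7286 CPM to 13680 to 20740 CPM. The collagens Col1a1, Col1a2 and Col3a1 made up most of it. Dpt was lower, at means of 5.40 and 1.04 CPM, and Pdgfra did not pass the test. Lum, among the 5 higher, was at means of 0.352 and 0.901 CPM and passed the filter on low counts mainly through the shDRP1 libraries. With a stricter filter the number of fibroblast markers that were higher was 4. Of 6 markers of undifferentiated myoblasts 5 were lower and 1 higher, with sums of 1213 to 1526 CPM and 215.1 to 242.3 CPM. Most of the shRandom sum was Des, at means of 879.0 and 86.8 CPM, which is also among the cytoplasmic partners described below. Myf5 was the 1 that rose, at means of 6.05 and 13.6 CPM, and Vcam1 stayed at 83.2% of its control mean. Beside these counts, 33.9% of all 13025 genes tested were higher and 33.3% lower. The myotube marker Myh8 and the myoblast marker Pax7 passed the filter on low counts only through the shRandom libraries. Markers of endothelial cells and leukocytes summed to at most 2.75 CPM in any library, those of glia and neurons to 21.3 to 29.1 CPM in shRandom and 16.1 to 19.0 CPM in shDRP1, and no adipocyte marker was analysed here. The part of these shifts in the changes described next was not tested. In bulk RNA, fewer cells of a type and less RNA per cell cannot be told apart. Within both groups the libraries also spread along a main axis, described with Sgce, that held 63.8% of the variance inside the groups. Libraries shRandom 1 and shDRP1 2 lay at its positive end and shRandom 4 and shDRP1 5 at its negative end.

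Promoter sequence is shown for 3 genes of the complex that fell together, Sgca, Sgcb and Dag1, and for Sgcd, a sarcoglycan that did not pass the test. Each window runs from 250 bases before to 50 bases after a RefSeq transcript start on GRCm38.p6, is written 5′ to 3′ on the gene's strand, and has every match to the E-box CANNTG, on either strand, in capitals. The E-box is the motif bound by MyoD, myogenin and other helix-loop-helix factors.
Sgca, chr11:94976278-94976577, minus strand: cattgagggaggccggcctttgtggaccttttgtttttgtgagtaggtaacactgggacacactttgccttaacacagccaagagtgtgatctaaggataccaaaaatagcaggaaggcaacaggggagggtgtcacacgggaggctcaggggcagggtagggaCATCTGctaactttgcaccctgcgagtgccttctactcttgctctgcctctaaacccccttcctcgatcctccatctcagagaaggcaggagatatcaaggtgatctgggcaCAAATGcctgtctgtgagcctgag
Sgcb, chr5:73647688-73647987, minus strand: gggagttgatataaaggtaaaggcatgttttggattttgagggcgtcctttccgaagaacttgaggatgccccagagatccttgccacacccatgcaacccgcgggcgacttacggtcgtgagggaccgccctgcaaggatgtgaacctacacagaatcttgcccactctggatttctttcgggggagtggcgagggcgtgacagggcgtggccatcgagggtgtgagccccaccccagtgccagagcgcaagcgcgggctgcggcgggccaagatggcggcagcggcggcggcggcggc
Dag1, chr9:108263909-108264208, minus strand: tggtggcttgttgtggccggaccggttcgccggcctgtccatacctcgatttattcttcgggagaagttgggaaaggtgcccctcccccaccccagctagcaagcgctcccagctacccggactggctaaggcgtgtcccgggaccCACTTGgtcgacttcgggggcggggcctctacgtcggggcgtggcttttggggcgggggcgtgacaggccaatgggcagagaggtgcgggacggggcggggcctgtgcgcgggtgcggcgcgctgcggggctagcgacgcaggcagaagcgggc
Sgcd, chr11:47379276-47379575, minus strand: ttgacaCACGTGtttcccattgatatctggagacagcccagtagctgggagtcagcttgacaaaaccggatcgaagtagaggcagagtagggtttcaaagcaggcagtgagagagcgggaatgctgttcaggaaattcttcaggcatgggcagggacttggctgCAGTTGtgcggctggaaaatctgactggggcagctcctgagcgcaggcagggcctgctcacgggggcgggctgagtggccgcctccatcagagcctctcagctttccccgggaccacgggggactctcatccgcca

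The Sgca window held 2 E-boxes that do not overlap, that of Sgcb none, that of Dag1 1 and that of Sgcd 2. A match to CANNTG was found in 72.3% of 32851 promoter windows of the same length, so its presence sets none of these genes apart. The narrower E-box CAGCTG, a subset of CANNTG that 16.3% of all windows held, was in none of the 4. The Sgcb and Dag1 windows were rich in CG dinucleotides, with 24 and 30, against 4 in the Sgca window and 12 in that of Sgcd. RefSeq gives Dag1 a second window, which overlaps the one shown and holds 47. RefSeq windows were found for 6 of the 9 genes, which also include Utrn and Dmd. A match describes the letters of the window and is neither a binding site nor a cause.

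Across the complex, dystroglycan and alpha- and beta-sarcoglycan fell, epsilon-sarcoglycan rose, beta1-syntrophin fell to 1 count in all shDRP1 libraries, and utrophin, delta-sarcoglycan and dystrobrevin alpha did not pass the test. Of the 9 genes 8 passed the filter on low counts, 4 of these fell and 1 rose at an adjusted p of 0.05. In the same fit 33.3% of all 13025 genes tested fell and 33.9% rose, so a share of called genes of this size is not particular to the complex. The groups did not overlap for 4 of the 8 genes, and the same was true of 48.9% of all genes tested. The median log2 fold change of the 8 was -0.51, against 0.03 for all genes tested. Sntb1 passed the filter only through the shRandom libraries, where it is high, so it had to differ. Of the 7 tested genes without it, 3 fell, 1 rose, 3 had groups that did not overlap, and the median log2 fold change was -0.12. Dmd did not pass the filter.

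**Figure D1:**
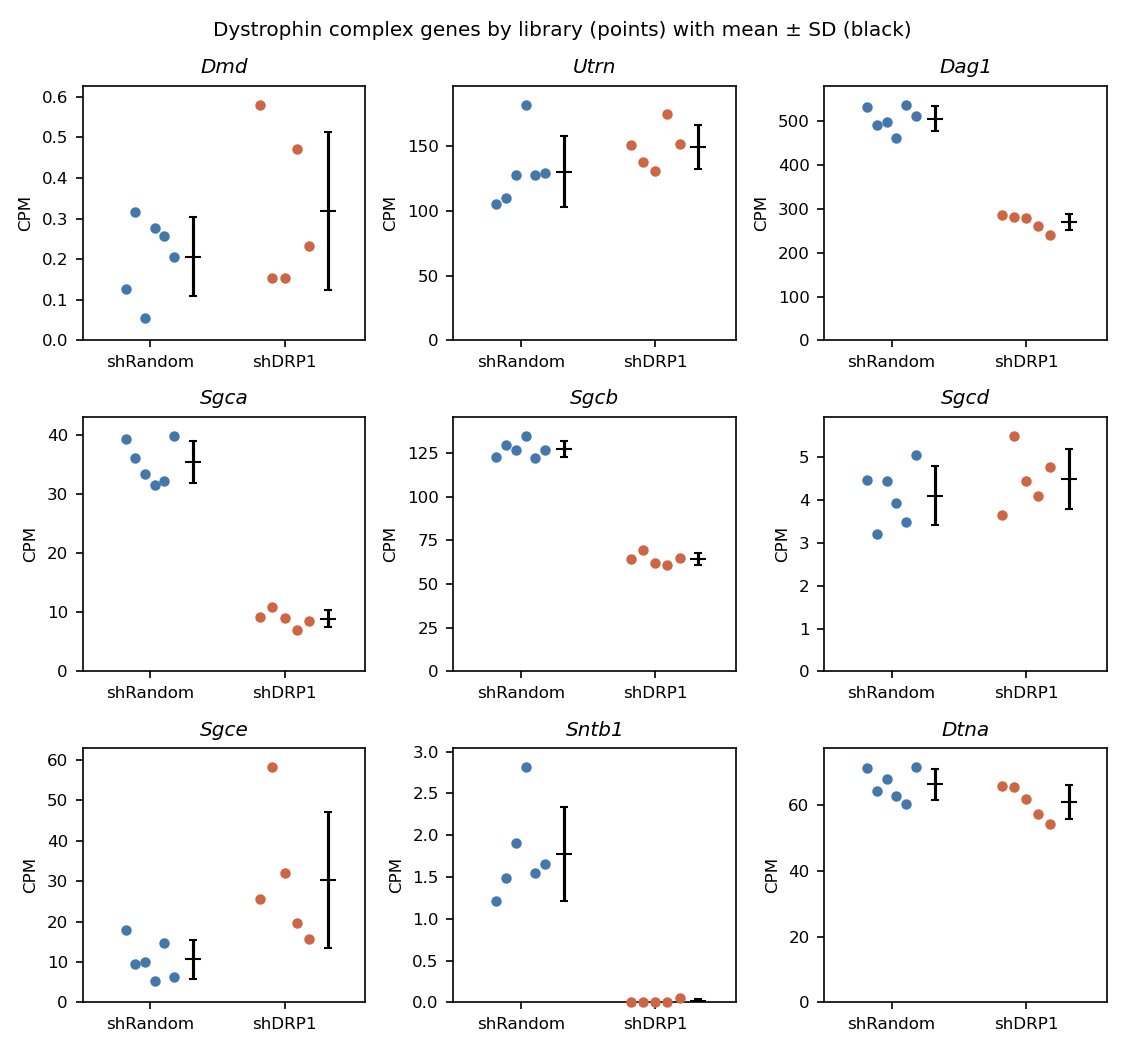
Level of each of the 9 genes in CPM (vertical axes from 0) in 6 shRandom libraries (blue) and 5 shDRP1 libraries (orange), ordered by replicate number within a group, with mean and SD in black. Dag1, Sgca, Sgcb and Sntb1 show no overlap between the groups, Sgce is higher in shDRP1 with a small overlap, and Dmd is under 0.6 CPM throughout.

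Dystroglycan is the link through the membrane: Dag1 encodes a precursor that is cut into the extracellular alpha subunit, which binds laminin, and the beta subunit, which spans the membrane and binds dystrophin or utrophin. Dag1 (ENSMUSG00000039952, chromosome 9, 108204634 to 108263958 on the minus strand of GRCm38) ranged from 460.0 to 536.6 CPM in shRandom libraries with a median of 504.3 CPM. In shDRP1 libraries 1 to 5 it was at 286.3, 281.7, 277.8, 260.0 and 241.2 CPM. Every shDRP1 library was lower than every shRandom library, and the means were 504.7 ± 28.2 CPM (SD, n = 6) and 269.4 ± 18.6 CPM (SD, n = 5). edgeR gave a log2 fold change of -0.91 with an SE of 0.06 (adjusted p = 8.9e-09), which left 53.4% of the control mean.

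Alpha-sarcoglycan, encoded by Sgca, is the member of the sarcoglycan group most restricted to striated muscle. Sgca (ENSMUSG00000001508, chromosome 11, 94962791 to 94976327, minus strand) ranged from 31.5 to 39.9 CPM in shRandom libraries, with a median of 34.8 CPM. The shDRP1 libraries 1 to 5 were at 9.28, 10.8, 9.06, 6.97 and 8.49 CPM. The highest shDRP1 library was thus far under the lowest shRandom library, and the mean of 8.93 ± 1.39 CPM (SD, n = 5) was 25.2% of the shRandom mean of 35.4 ± 3.58 CPM (SD, n = 6). edgeR gave a log2 fold change of -1.99 with an SE of 0.11 (adjusted p = 7.7e-10).

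Beta-sarcoglycan, encoded by Sgcb, forms the assembly core of the sarcoglycans with delta-sarcoglycan, encoded by Sgcd. Sgcb (ENSMUSG00000029156, chromosome 5, 73632749 to 73647790, minus strand) ranged from 122.1 to 134.9 CPM in shRandom libraries, with a median of 126.8 CPM. It was at 64.3, 69.7, 62.1, 61.0 and 65.1 CPM in shDRP1 libraries 1 to 5. The groups lay far apart and each was tight, with coefficients of variation of 3.69% and 5.24%. edgeR gave a log2 fold change of -0.98 with an SE of 0.05 (adjusted p = 6.9e-10), or 50.6% of the control mean of 127.2 ± 4.70 CPM (SD, n = 6).

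Sgcd (ENSMUSG00000020354, chromosome 11, 46896253 to 47988969, minus strand) was counted far less often, so its values are less precise. It ranged from 3.201 to 5.055 CPM in shRandom libraries, with a median of 4.18 CPM, and was at 3.65, 5.49, 4.43, 4.10 and 4.77 CPM in shDRP1 libraries 1 to 5. The groups overlapped over most of their range. edgeR gave a log2 fold change of 0.13 with an SE of 0.15 (adjusted p = 0.46), with 443 counts in all shRandom and 389 in all shDRP1 libraries. The spread among shRandom libraries, a coefficient of variation of 16.8%, was not far above the 11.6% that counting alone gives.

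Epsilon-sarcoglycan, encoded by the imprinted gene Sgce, is the paralog of alpha-sarcoglycan outside striated muscle. Sgce (ENSMUSG00000004631, chromosome 6, 4674350 to 4747207, minus strand) was at 17.9, 9.42, 9.95, 5.42, 14.8 and 6.40 CPM in shRandom libraries 1 to 6, and in shDRP1 libraries 1 to 5 at 25.5, 58.3, 32.03, 19.7 and 15.8 CPM. The groups overlapped at their edge, since shDRP1 5 was below shRandom 1. Sgce rose from a mean of 10.6 ± 4.83 CPM in shRandom (SD, n = 6) to 30.3 ± 16.8 CPM (SD, n = 5), a log2 fold change of 1.51 (SE 0.37, adjusted p = 0.0034, edgeR). The highest library was 3.30 times the lowest in shRandom and 3.69 times in shDRP1. The coefficients of variation were 45.4% and 55.6%, where counting alone gives 7.33% and 4.47%.

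The wide spread of Sgce followed the main axis of variation within the groups. The axis is the first principal component of log2 levels of 8328 genes after each group was centred on its own mean. Its scores were 0.49, -0.04, -0.04, -0.46, 0.14 and -0.08 in shRandom libraries 1 to 6 and -0.04, 0.48, 0.23, -0.24 and -0.43 in shDRP1 libraries 1 to 5. In both groups the library with the highest score had the highest Sgce level and the library with the lowest score the lowest. With the score as a covariate, chosen after seeing the data and derived from the same counts, the log2 fold change of Sgce was 1.47 (adjusted p = 4.9e-11, edgeR). Without shDRP1 2, the library with the highest level, it was 1.13. A transcript of Gm42418, which overlaps ribosomal RNA, took 2.67% of counts in shRandom 1, 2.71% in shDRP1 2 and 2.43% in shDRP1 3, against 4.34% in shRandom 4 and 5.54% in shDRP1 5. The other libraries were at 3.99% to 4.69%. What lies behind the axis was not tested.

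**Figure D2:**
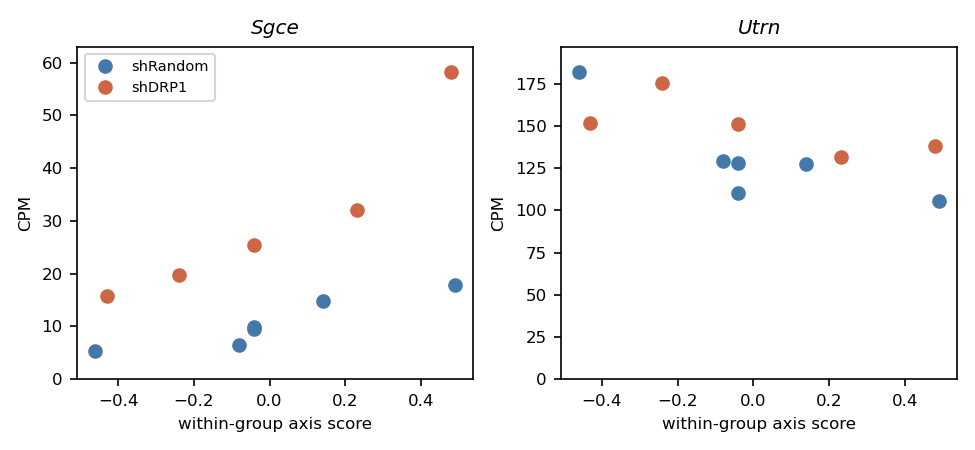
Levels of Sgce and Utrn in CPM (vertical axes from 0) against the score of each library on the main axis of variation within the groups, with shRandom in blue and shDRP1 in orange. Sgce is highest at the positive end in both groups (17.9 CPM in shRandom 1 and 58.3 CPM in shDRP1 2), and Utrn is highest in shRandom 4, at the negative end, at 182.2 CPM.

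The balance of the alpha- and epsilon-sarcoglycan paralogs turned over between the groups. Counts from 3' tags are not divided by transcript length, and the ratio within a library does not depend on the scaling of libraries. Sgce gave 31.3%, 20.7%, 22.9%, 14.7%, 31.4% and 13.8% of the tags of the pair in shRandom libraries 1 to 6. In shDRP1 libraries 1 to 5 it gave 73.3%, 84.3%, 77.9%, 73.8% and 65.1%. All shRandom libraries were thus on the Sgca side and all shDRP1 libraries on the Sgce side. The log2 ratio of Sgce to Sgca was -1.85 ± 0.66 (SD, n = 6) and 1.62 ± 0.56 (SD, n = 5), a difference of 3.47 (exact permutation test, two-sided, p = 0.00216, which is as low as 462 splits go).

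**Figure D3:**
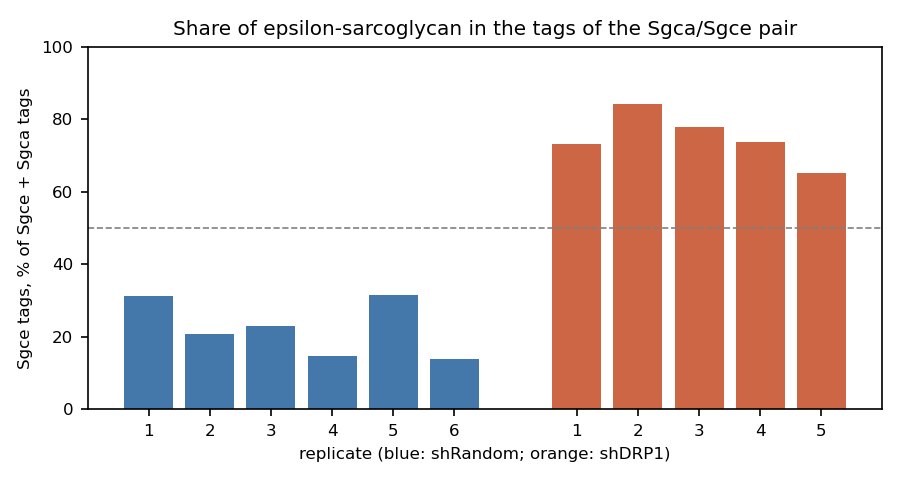
Share of Sgce in the tags of Sgce and Sgca together, in percent, 1 bar per library, with shRandom in blue and shDRP1 in orange and the dashed line at equal tags. The shRandom libraries lie between 13.8% and 31.4% and the shDRP1 libraries between 65.1% and 84.3%.

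Utrophin, encoded by Utrn, is the paralog that fills the place of dystrophin in immature muscle and at the neuromuscular junction. Utrn (ENSMUSG00000019820, chromosome 10, 12382188 to 12869365, minus strand) ranged from 105.8 to 182.2 CPM in shRandom libraries, with a median of 127.8 CPM. It was at 151.0, 138.3, 131.3, 175.4 and 151.8 CPM in shDRP1 libraries 1 to 5. Of the shRandom libraries, 5 lay below all shDRP1 libraries and shRandom 4 lay above them all. The means were 130.5 ± 27.2 CPM (SD, n = 6) and 149.6 ± 16.8 CPM (SD, n = 5), and the log2 fold change of 0.20 (SE 0.12, adjusted p = 0.18, edgeR) did not pass the test. The call rests on shRandom 4: without that library the log2 fold change was 0.32 (adjusted p = 0.0052, edgeR). It also passed with libraries scaled by their totals alone, at 0.30 (adjusted p = 0.036), a scaling that moved the median of all genes by 0.10, and with the axis score as a covariate, at 0.21 (adjusted p = 0.029). Over all alternatives its adjusted p ran from 0.0052 to 0.37.

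Dystrophin itself, the actin-binding protein encoded by Dmd, had few counts. Whether the authors' gene models reach the 3' end of its transcripts is not given in the sources used here, so little RNA and tags left unassigned cannot be told apart. Dmd (ENSMUSG00000045103, chromosome X, 82948870 to 85206141, plus strand) had 2, 7, 1, 5, 4 and 4 counts in shRandom libraries 1 to 6 and 10, 2, 3, 10 and 4 counts in shDRP1 libraries 1 to 5. The groups overlapped, at 0.0562 to 0.316 CPM and 0.154 to 0.580 CPM. The ratio of shDRP1 to shRandom over the summed 29 and 23 counts was 1.56 (95% exact binomial interval 0.870 to 2.82). The interval covers counting error alone, as amplified reads without molecular identifiers are not independent molecules. With no filter on low counts the gene was not called (adjusted p = 0.28, edgeR), nor was it by DESeq2 (adjusted p = 0.36). The interval reaches from a lower to a higher level in shDRP1, so these counts give no direction of change. The GENCODE M21 annotation lists 3 protein-coding transcripts, 1 from the start at 82948903 and 2 from a start at 85048413 far downstream. Their annotated 3' ends differ, at 85206141 for the long form and 85205039 and 85202498 for the short forms. The counts used here are per gene and do not tell the long form from the short forms.

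The log2 ratio of Utrn to Dmd tags was 9.24 ± 0.75 (SD, n = 6) in shRandom and 8.92 ± 0.68 (SD, n = 5) in shDRP1 libraries. The difference of -0.32 was under 1 SD of either group (p = 0.504 in a two-sided exact permutation test). The ratio is set by the 1 to 10 counts of Dmd, which limit its precision. Since Dmd tags may not all have been assigned, the ratio says nothing of the relative amounts of the paralogs.

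Syntrophins are adaptors that bind dystrophin, utrophin and dystrobrevin and recruit signalling proteins, and Sntb1 encodes beta1-syntrophin. Sntb1 (ENSMUSG00000060429, chromosome 15, 55636388 to 55906949, minus strand) had 19, 33, 34, 51, 24 and 32 counts in shRandom libraries 1 to 6. In shDRP1 libraries it had none in replicates 1 to 4 and 1 count in replicate 5. Each shRandom library was thus above each shDRP1 library. The ratio of shRandom to shDRP1 over 193 and 1 counts was 156.3, with a 95% exact binomial interval of 27.7 to 6205. Without shDRP1 5 no shDRP1 count was left, and the lower 95% exact limit of the ratio was 33.8. These limits, too, cover counting error only. Because the gene passed the filter through the shRandom libraries, its edgeR call adds no support to these counts. In shRandom it was at 1.77 ± 0.56 CPM (SD, n = 6).

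Dystrobrevin alpha, encoded by Dtna, is a dystrophin relative that binds dystrophin and syntrophin. Dtna (ENSMUSG00000024302, chromosome 18, 23415135 to 23659715, plus strand) ranged from 60.3 to 71.5 CPM in shRandom libraries, with a median of 66.0 CPM, and was at 65.8, 65.6, 61.8, 57.3 and 54.2 CPM in shDRP1 libraries 1 to 5. The groups overlapped, with 2 shDRP1 libraries under the lowest shRandom library. edgeR gave a log2 fold change of -0.12 with an SE of 0.07 (adjusted p = 0.14). With the axis score as a covariate it was -0.12 and passed narrowly, with an adjusted p of 0.05 after rounding.

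Of 7 other genes of the complex, 4 had a row and were tested, of which 1 fell, 2 rose and 1 did not pass, where 67.1% of all genes tested were called in either direction. The median log2 fold change was 0.40. Sarcospan, encoded by Sspn, is a small membrane protein that joins the sarcoglycans to dystroglycan. It fell from 141.5 ± 12.03 CPM in shRandom (SD, n = 6) to 74.5 ± 9.62 CPM (SD, n = 5), a log2 fold change of -0.93 (SE 0.09, adjusted p = 2.9e-07, edgeR). The lowest shRandom library was at 127.3 CPM and the highest shDRP1 library at 87.9 CPM, so the groups did not overlap. Sspn was thus at 52.7% of the control mean, beside 53.4% for Dag1 and 50.6% for Sgcb.

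Sntb1 and Dtna have relatives on the cytoplasmic side. Beta2-syntrophin, encoded by Sntb2, rose from 28.1 to 39.8 CPM in shRandom libraries to 48.7 to 59.9 CPM in shDRP1 libraries, with no overlap and a log2 fold change of 0.69 (SE 0.10, adjusted p = 1.5e-05, edgeR). Dystrobrevin beta, encoded by Dtnb, rose from 1.31 ± 0.20 CPM in shRandom (SD, n = 6) to 2.28 ± 0.35 CPM (SD, n = 5), a log2 fold change of 0.79 (SE 0.17, adjusted p = 0.00076). Nos1, the neuronal nitric oxide synthase gene, was at 4.98 ± 1.03 and 5.40 ± 1.06 CPM (log2 fold change 0.10, adjusted p = 0.59, edgeR), and the sign turned to -0.03 without shDRP1 2. The genes Sgcz, Sntg1 and Sntg2 were not analysed here.

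**Figure D4:**
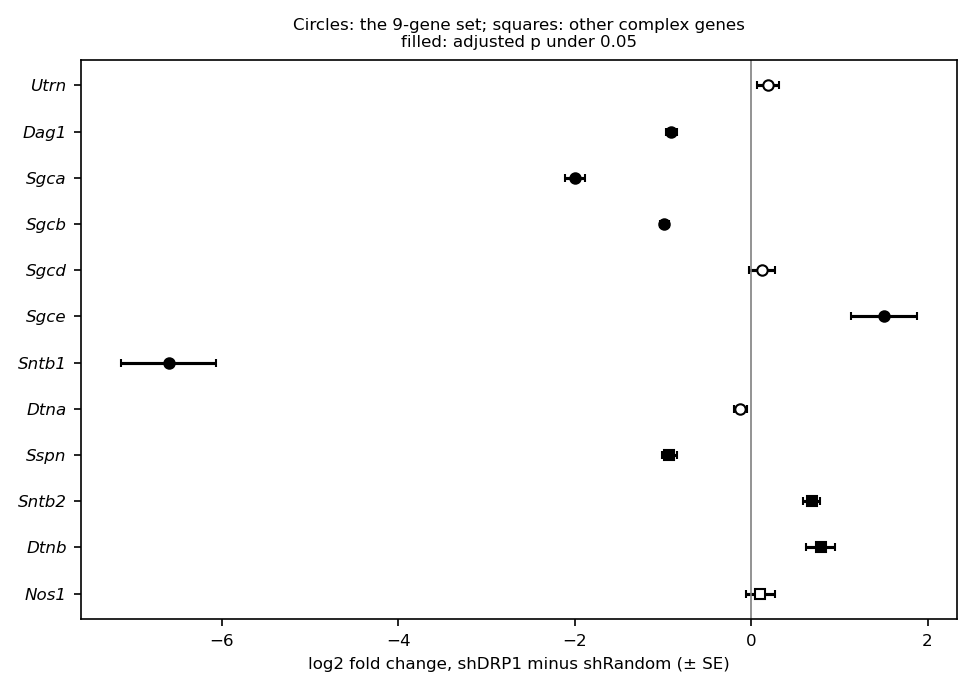
Log2 fold changes of shDRP1 against shRandom with standard errors for the 8 tested genes of the 9-gene set (circles) and 4 other genes of the complex (squares), filled where the adjusted p was under 0.05. Sntb1, with 1 count in shDRP1, is fitted at -6.60, Sgca is at -1.99 and Sspn at -0.93, while Sgce is at 1.51 and Dtnb at 0.79.

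Alpha-dystroglycan binds laminin only once a chain of sugars has been built on it, and the enzymes of that chain are the most common site of dystroglycan-related disease. Of 17 listed, 15 were tested, 6 rose, 1 fell and 8 did not pass, with a median log2 fold change of 0.15. The background is 33.9% of all genes tested that rose and 33.3% that fell, so the share that rose is near it. Gmppb, which makes GDP-mannose, rose from 45.6 to 67.4 CPM (log2 fold change 0.56, SE 0.09, adjusted p = 8.5e-05, edgeR). The dolichol-phosphate-mannose synthase subunit Dpm3 rose by 0.32, the dolichol kinase Dolk by 0.44 and the O-mannose kinase Pomk by 0.33 on the log2 scale. The synthase subunit Dpm1 fell by 0.55 (adjusted p = 0.0066, edgeR) and was chosen after its value was seen. Without shRandom 1 the count that fell was 2.

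Alpha-dystroglycan binds extracellular proteins that carry laminin G domains, among them laminins and neurexins, and also biglycan and Slit proteins. Of 21 listed ligands 16 were tested, 9 fell, 3 rose and 4 did not pass, with a median of -1.47. Among the 9, Lamc3, Lama1, Nrxn3 and Slit3 passed the filter only through the shRandom libraries, where they are high, so they had to differ. Their calls add no support, and both the count that fell and the median include them. Of all genes tested, 33.3% fell and 33.9% rose. The laminin chain Lama2, part of the laminin of the adult muscle basement membrane, fell from 9.90 ± 1.47 CPM in shRandom (SD, n = 6) to 1.82 ± 0.35 CPM (SD, n = 5), a log2 fold change of -2.43 (SE 0.15, adjusted p = 2.9e-09, edgeR). Lama4 fell from 28.5 to 2.37 CPM and Lamb3 from 34.4 to 1.41 CPM. The neurexin Nrxn3, which binds dystroglycan in brain, fell from 3.40 to 0.167 CPM. The 3 that rose were the proteoglycans agrin (Agrn) and perlecan (Hspg2) and the guidance ligand Slit2, at log2 fold changes of 0.35, 0.84 and 0.30.

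On the inner side, of 17 listed cytoplasmic partners 15 were tested, 7 fell, 4 rose and 4 did not pass, with a median of -0.13. The share called in either direction was near the 67.1% of all genes tested. Krt19, among the 7 that fell, passed the filter only through the shRandom libraries. The muscle intermediate filament gene Des fell from 879.0 ± 127.4 CPM in shRandom (SD, n = 6) to 86.8 ± 18.7 CPM (SD, n = 5), and Tubb6, a tubulin, from 584.4 to 164.0 CPM. Synemin (Synm), an intermediate filament protein that binds dystrophin and dystrobrevin, rose from 1.09 ± 0.26 CPM in shRandom (SD, n = 6) to 16.5 ± 0.77 CPM (SD, n = 5), a log2 fold change of 3.92 (SE 0.14, adjusted p = 4.3e-12, edgeR). The catenin-like gene Ctnnal1, whose product binds dystrobrevin, rose from 3.96 to 27.1 CPM.

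Among 14 genes of the membrane around the complex and of its repair, 7 fell, 5 rose and 2 did not pass, with a median of -0.09, beside 33.3% and 33.9% of all genes tested. The count that rose was 3 without shDRP1 3, and also with the replicate number as a block. Integrin alpha7 (Itga7), the other laminin receptor of muscle, fell from 523.0 ± 27.2 CPM in shRandom (SD, n = 6) to 45.6 ± 2.75 CPM (SD, n = 5), a log2 fold change of -3.52 (SE 0.07, adjusted p = 7.4e-15, edgeR). Caveolin 3 (Cav3) fell from 63.2 to 0.383 CPM, the repair protein dysferlin (Dysf) from 67.1 to 9.95 CPM and the scramblase Ano5 from 4.97 to 0.181 CPM. Cav3, Ano5 and Trim72, all among the 7 that fell, passed the filter only through the shRandom libraries. Their calls thus add no support to their levels. Dag1 was at 53.4% of its control mean and Itga7 at 8.71%. The medians of the ligand and membrane lists do not hang on the values fitted to Lamc3 and Trim72, which had no count in shDRP1 libraries, since both lie far below them. Both medians do count the genes that passed the filter only through the shRandom libraries.

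**Figure D5:**
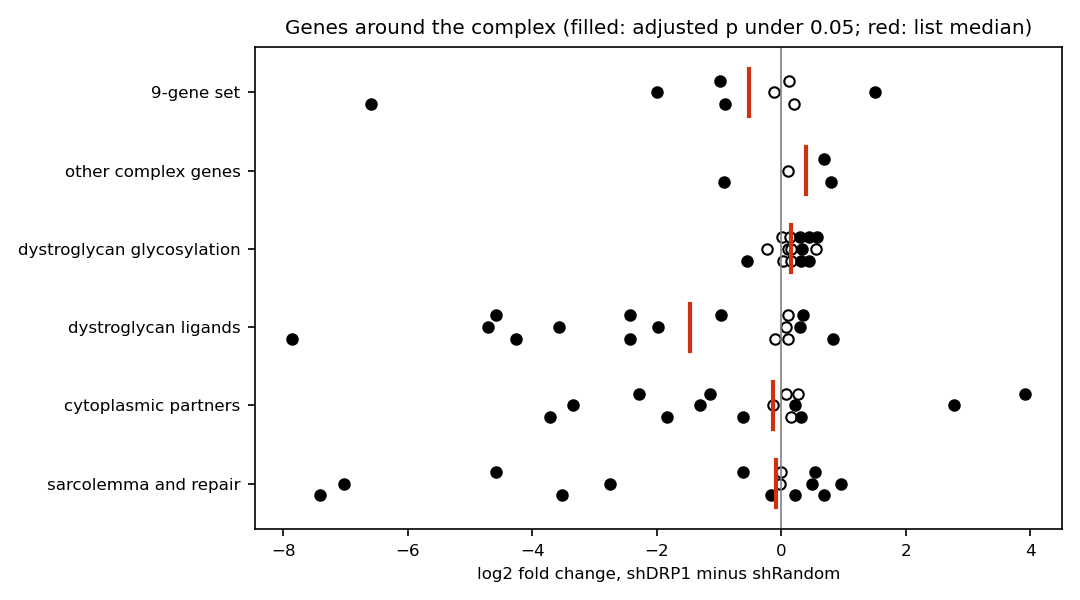
Log2 fold changes of shDRP1 against shRandom for the tested genes of the 9-gene set and of 5 lists around it, 1 point per gene, filled where the adjusted p was under 0.05, with the median of each list as a red bar. The enzymes of dystroglycan glycosylation lie close to 0 (median 0.15), while the ligands spread widely (median -1.47). The ligand median includes genes that passed the filter only through the shRandom libraries. Lamc3, the lowest ligand, and Trim72 in the last list had no count in shDRP1 libraries, so their fitted positions are not measured folds.

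Genes with the profile most like that of a gene of the complex were sought by the distance between centred log2 levels over the 11 libraries, among 8317 genes with a mean of at least 10 CPM. Nearest to Sgca were Angpt4 at a distance of 0.30, and Suox and Adcy7 at 0.42 each, which fell by 2.02, by 2.04 and by 2.04 on the log2 scale. Nearest to Utrn were Ash1l at 0.23, Peak1 at 0.24 and Srrm2 at 0.24, with log2 fold changes of 0.15, 0.18 and 0.27. Dmd was not among the genes that passed the filter and has no such neighbours. These distances describe the 11 libraries, which share the split between the groups.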

How the data were processed

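Messenger RNA was counted in 11 QuantSeq libraries, a method that primes on the poly(A) tail and reads tags close to the 3' end of a transcript. Samples were grouped by the hairpin in their titles. Per the series text, reads were aligned in BlueBee, and the submitters' processing notes list DESeq2 (version 1.22.2) and the builds GRCm38 and mm10. Aligner, counter, strand setting and gene models: not given in the sources used here. A deposited table gives raw whole-number counts for 15113 genes, and 15080 identifiers had a symbol. Positions came from GENCODE M21 and promoters from RefSeq (GRCm38.p6).

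The main test was that of edgeR version 4.0.16 (R version 4.3.3): filterByExpr left 13025 genes, scaling was by TMM, and a robust quasi-likelihood fit with group as its only term was adjusted by Benjamini-Hochberg over all genes, with a threshold of 0.05. CPM use the scaled library sizes. A standard error is the log2 fold change over the root of its F. Ratios used a pseudocount of 0.5. Depth ran from 12277622 to 23082617 counts, and chi-square over degrees of freedom between libraries of a group from 5.031 to 57.15, so no pair of libraries matched within sampling noise. The fit was checked on simulated data in which 200 genes were changed. How it behaves with most genes changed, as called here, was not checked.

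The genes and lists were chosen with earlier results of these data known. Named were the 9 genes, the other measured genes of the complex, Dnm1l, the 4 genes of smallest adjusted p with a mean of at least 1 CPM in each of 4 lists, and the 3 nearest profiles of Sgca and Utrn. Dpm1, Agrn, Hspg2, Slit2 and the list genes of the closing parts were chosen after their values had been seen. Alternatives were other scalings and filters, DESeq2 version 1.42.0, limma-voom (limma version 3.58.1), the replicate number as a block and leaving out each library. Added after seeing the data were the axis score as a covariate, leaving out pairs of libraries, and replicates 1 to 5 without the block. The second deposited table, of scaled counts, was not used here. A few genes are not reported here and were left out of the counts and medians of their lists.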

Additional observations from a re-analysis of the deposited data

Results flagged for a closer look

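Of 32 sets of libraries, each a gene of the complex, Dnm1l or a paralog ratio within 1 group, 3 held a library farther from the rest than Dixon's 95% limit allows, where chance flags about 1 in 20. Utrn was at 182.2 CPM in shRandom 4, the highest of that group. Nos1 was at 7.27 CPM in shDRP1 2. Sntb1 was at 0.0582 CPM in shDRP1 5, which is 1 count where the other shDRP1 libraries had none.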

How the results depend on the processing

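Dag1, Sgca, Sgcb, Sgce and Dnm1l kept their direction and stayed past the threshold under every alternative run, and Sgcd stayed short of it. Leaving out each library in turn gave log2 fold changes of -0.93 to -0.87 for Dag1, -2.08 to -1.91 for Sgca, -1.02 to -0.96 for Sgcb, 1.13 to 1.72 for Sgce, 0.13 to 0.32 for Utrn, -0.16 to -0.08 for Dtna and -0.026 to 0.183 for Nos1. Utrn passed with library totals alone (0.30), with the axis score as a covariate (0.21), without shRandom 4 (0.32) and without shRandom 4 and shDRP1 5 together (0.31); Dtna passed with the axis score alone (-0.12, adjusted p = 0.05 after rounding). The cause was not tested. The count of higher genes of the membrane and repair list was 3 in the fit with the replicate number as a block, against 5, and 3 to 5 with each library left out. The count of lower glycosylation genes was 1 to 2 with each library left out. The replicate numbers gave no clear pairing of the libraries: deviations of same-numbered libraries correlated from -0.38 to 0.56 over 5 pairs. Among shRandom libraries 1 to 5, none was closest to the shDRP1 library of its own number, and the reverse was not checked. With the block, on replicates 1 to 5, 3948 genes rose and 3899 fell, against 4184 and 4078 without it on the same libraries, and no call among the 9 genes changed. With the block, the difference in the log2 ratio of Sgce to Sgca tags over 5 pairs was 3.313 (exact sign-flip permutation, p = 0.0625, the smallest it can give). Depth limits what can be said of Dmd.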

Other observations

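Some genes next to the complex had no count in any shDRP1 library. The laminin chain Lamc3 had 179 counts in all shRandom libraries and none in shDRP1, and Trim72, a membrane repair protein of striated muscle, had 99 and none. A count of 0 over the shDRP1 group allows up to 0.0341 CPM. Other genes of membrane repair and attachment were higher in shDRP1: the annexin Anxa5 was at 335.8 and 489.8 CPM (log2 fold change 0.55, SE 0.05, adjusted p = 1.2e-07, edgeR) and the LIM-domain gene Fhl1 at 122.1 and 237.4 CPM (0.96, SE 0.18, adjusted p = 0.00035). Integrin beta1 (Itgb1), the partner chain of Itga7, was at 871.5 and 1018 CPM, a log2 fold change of 0.22 (SE 0.06, adjusted p = 0.0051).

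The laminin chains split within the ligand list. Lamb1 fell from 219.1 to 111.5 CPM (log2 fold change -0.97, adjusted p = 1e-07), while Lamb2, Lamc1 and Lama5 were at 0.10, 0.10 and 0.08 and did not pass (adjusted p = 0.33, 0.39 and 0.73, edgeR).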
